A study of Pinus tabuliformis with 21 samples.

Results

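In foliage of the Chinese pine Pinus tabuliformis, 80 gene models were near or above their unirradiated level after 1 d of added ultraviolet light and below it after 7 d, in both bands given, UV-C and UV-B. They were chosen by measured values from 84525 gene models, of which 11220 averaged at least 5 CPM (a gene model's count as a share of its library's total, scaled so that each library has the same sum) in the control. The measure was D, the difference of log2(mean CPM + 1) between a treatment and the control. Of the 11220, 6942 had a D above -0.3 in both bands at 1 d, and the 80 with the lowest value of the larger D of UV-C and UV-B at 7 d were taken. They are ranked here by that value, from 1 (the deepest fall) to 80. The larger D at 7 d was -1.74 at rank 1 and -0.55 at rank 80, and the first gene model outside, rank 81, had -0.54, so the list ends within a continuum and not at a gap.

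The samples were foliage of seedlings aged 2.5 years under fluorescent lamps, to which lamps of a single ultraviolet band were added. The labels give 12 light hours, a distance of 10 cm and 180 seedlings in total for all groups alike. For UV-C the lamps covered 230 to 270 nm with the maximum at 254 nm and gave 28 µW/cm2, and for UV-B they covered 280 to 320 nm with the maximum at 306 nm and gave 280 µW/cm2. The groups were UV-C for 1, 3 and 7 d, UV-B for 1, 3 and 7 d, and a 0 h control that was given no ultraviolet lamp, each of 20 seedlings and each with 3 libraries of poly(A) RNA. Intensity differed between the bands, and the only unirradiated libraries are those of 0 h, so in any contrast with the control the time spent in the experiment and the irradiation cannot be told apart. Whether the 3 libraries of a group are separate seedlings is not stated, and the tests therefore measure the spread between these libraries, which may be technical.

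As background, UV-B is part of sunlight at ground level and is sensed in plants by the photoreceptor UVR8, which acts through COP1 and HY5 on genes for flavonoid sunscreens and DNA repair. UV-C is absorbed by the atmosphere and reaches plants from lamps. It is taken up directly by nucleic acids, and both bands damage DNA by joining neighbouring pyrimidines. Transcripts that first hold or rise and later fall are one of several time courses that such a stress can give, beside lasting, transient and late rises.

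The count table pairs no identifier with a gene name, so the members are described by rank, and only ranks 1 and 2 by identifier. Of the 80 identifiers, 70 begin with PITA_ and 8 with PITAhm_, and 2 have other forms. These make 87.5%, 10% and 2.5%, beside 87.8%, 10.1% and 2.15% of the 6942 gene models that met the conditions on the control and on 1 d. Without names, the labelled tissue could not be checked against marker genes. In bulk foliage, fewer cells of a type and less RNA per cell cannot be told apart.

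Libraries held 6177212 to 8560163 counts. All 80 members passed the filter on low counts. Each had at least 1 count in every library, and 8 had fewer than 10 counts in some library. Control means ran from 5.15 to 3105 CPM with a median of 21.001 CPM, 14 members lay under 10 CPM and 13 at or above 100 CPM. UV-C 3 d replicate 3 had the lowest mean correlation with its group mates over the gene models of at least 5 CPM (0.935), beside 0.94 for UV-C 3 d replicate 2 and 0.979 to 0.985 in the control.

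After 1 d a part of the members stood above the control. In 34 of the 80, D was above 0.3 after 1 d of UV-C, and in 42 after 1 d of UV-B. These are 42.5% and 52.5%, beside 32.1% and 42.1% of the 6862 gene models that met the conditions on the control and on 1 d and are not members. These groups shared 26 members, 8 were above 0.3 under UV-C only, 16 under UV-B only and 30 under neither band. The rule asked for a D above -0.3 at 1 d, which removes low values, so shares above 0.3 and medians also depend on the choice. Members also varied more between libraries at 1 d. Their median SD of log2(CPM + 1) was 0.47 under UV-C and 0.43 under UV-B, beside 0.19 and 0.21 among those 6862. How much of the higher level at 1 d comes from the choice was not tested. Over all members the median D was 0.23 for UV-C and 0.45 for UV-B at 1 d, beside 0.15 and 0.21 among those 6862. In 39 members the highest of the 7 group means was that of UV-B at 1 d, in 31 that of UV-C at 1 d, in 6 that of the control and in 4 that of UV-C at 3 d. The choice put the 7 d means below the control and kept low means at 1 d out, so these counts only describe the list.

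**Figure D1:**
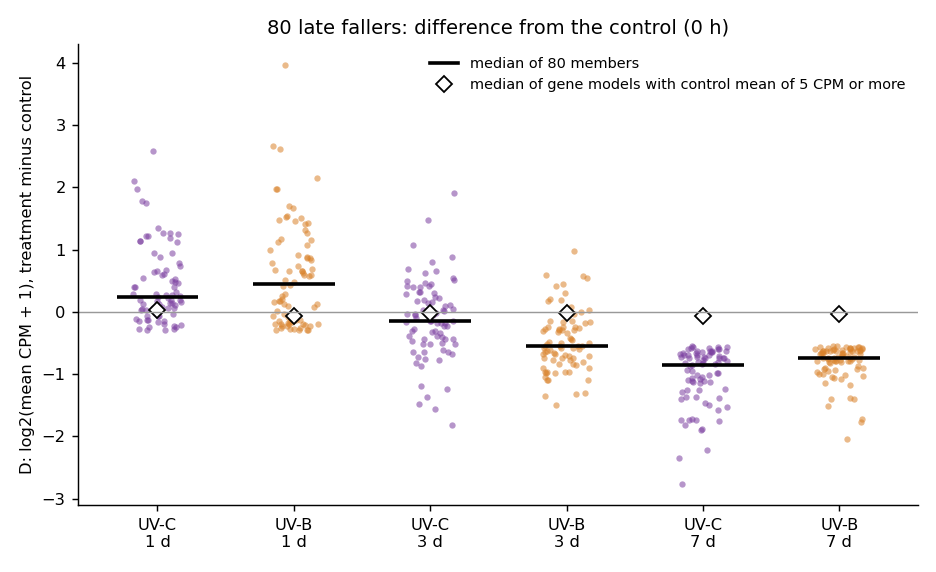
D (difference of log2(mean CPM + 1) from the control) of each of the 80 members in the 6 treatments, with the median of the members as a bar and the median of all 11220 gene models of at least 5 CPM in the control as a diamond. At 3 d, the time that was not used to choose the members, the median of the members was -0.15 under UV-C and -0.55 under UV-B, with diamonds near 0 in every treatment.

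At 7 d, D lay between -2.77 and -0.55 under UV-C and between -2.05 and -0.55 under UV-B, with medians of -0.85 and -0.74. A D of -1 or below, a mean CPM + 1 of at most 0.5 of the control's, was reached by 34 members under UV-C and by 16 under UV-B, and by 12 members in both. All 3 libraries of UV-C at 7 d lay below all 3 control libraries for 65 members, beside 21.9% of all 18265 gene models tested, and all 3 of UV-B for 50 members, beside 19.4%. In edgeR's quasi-likelihood test, with a Benjamini-Hochberg adjusted p under 0.05, 33 members were called lower under UV-C at 7 d than in the control (background 6.14%) and 24 under UV-B (background 8.38%). With any 1 of the 6 libraries of the UV-C contrast left out, the UV-C count was between 9 and 19. In those fits 491 to 753 gene models were called lower, beside 1121 in the fit of all libraries. The median log2 fold change of the members was between -0.97 and -0.82. These contrasts chose the members, so the counts describe the list and show nothing further.

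The lowest value of the larger D belonged to the member of rank 1, identifier PITA_000044187-RA. Its levels were 20.6, 28.6 and 12.0 CPM in the control libraries. At 1 d it had 87.4, 41.0 and 31.8 CPM under UV-C and 20.1, 48.3 and 29.5 CPM under UV-B. At 3 d it had 37.2, 48.8 and 9.64 CPM under UV-C and 5.95, 9.21 and 11.9 CPM under UV-B. All UV-B libraries at 3 d were thus below all control libraries, while under UV-C replicates 1 and 2 were above the control and replicate 3 was below it, and neither contrast with the control was called (edgeR adjusted p = 0.391 for UV-C and 0.0687 for UV-B). At 7 d it had 5.61, 5.85 and 4.76 CPM under UV-C and 3.57, 6.72 and 5.47 CPM under UV-B, below every control library and close together in both bands.

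The member of rank 2, PITA_000046233-RA, varied far more between replicates. The control libraries held 18.6, 5.37 and 38.7 CPM. UV-C at 3 d gave 4.05, 16.3 and 69.9 CPM and UV-B at 3 d 17.2, 11.9 and 12.9 CPM. The groups overlapped at 3 d, and no contrast at that time was called (UV-C minus UV-B 1.13 on the log2 scale, SE 0.78, edgeR adjusted p = 0.399), and without UV-C 3 d replicate 3 the difference turned to -0.42. At 7 d it held 8.995, 4.08 and 2.51 CPM under UV-C and 3.02, 9.01 and 4.94 CPM under UV-B, so control replicate 2 lay within the range of the irradiated libraries.

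Ranks 3, 5, 6 and 9 had control means of 9.06 ± 7.87, 16.7 ± 14.4, 9.91 ± 2.28 and 10.5 ± 1.03 CPM (SD, n = 3). For ranks 3 and 5 control replicate 3 was the highest library of its group, with 17.98 and 32.5 CPM, and control replicate 2 the lowest, with 3.09 and 4.43 CPM. At 3 d rank 3 averaged 14.8 ± 5.90 CPM under UV-C and 3.71 ± 3.905 CPM under UV-B (SD, n = 3). The lowest UV-C library, at 8.26 CPM, was just above the highest UV-B library, at 8.22 CPM, and the log2 fold change of 2.02 (SE 0.85) had an edgeR adjusted p of 0.147. None of the 4 was called at 3 d in any of the 3 contrasts of UV-C, UV-B and control, where their edgeR adjusted p ran from 0.0675 to 0.876. At 7 d their means were 2.48, 5.85, 2.26 and 3.71 CPM under UV-C and 1.44, 6.85, 3.96 and 4.49 CPM under UV-B.

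Ranks 4, 8 and 10, like ranks 1, 2, 3, 5, 6 and 9, had means above the control at 1 d in both bands. At 7 d all of them were below it in both bands. For rank 10 the mean was 23.0 ± 9.46 CPM in the control, 103 ± 68.6 CPM after 1 d of UV-C and 374 ± 174 CPM after 1 d of UV-B (SD, n = 3), the largest D at 1 d of any member (3.96 under UV-B). At 3 d it still held 89.5 ± 56.2 CPM under UV-C and 46.1 ± 17.6 CPM under UV-B, the highest D at 3 d among the members in each band (1.91 and 0.97), with an edgeR adjusted p of 0.0663 and 0.357 against the control. At 7 d it had 2.52 ± 1.46 CPM under UV-C, the lowest D of any member (-2.77), and 10.6 ± 11.7 CPM under UV-B. The UV-B value rests on replicate 2, with 24.1 CPM beside 2.47 and 5.34 CPM.

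Rank 8 had the largest D at 1 d under UV-C (2.59), with 72.8, 101 and 81.6 CPM at 1 d, beside 46.0, 68.9 and 50.2 CPM after 1 d of UV-B and 10.5, 9.12 and 20.3 CPM in the control. Every library at 1 d was above every control library. At 7 d it held 6.54, 4.22 and 2.51 CPM under UV-C, all below the control. Under UV-B it held 3.29, 12.2 and 1.74 CPM, where replicate 2 lay within the control's range. Rank 4 averaged 50.4 ± 40.4 CPM under UV-C and 182 ± 81.6 CPM under UV-B at 1 d, beside 29.0 ± 10.2 CPM in the control, and at 7 d 4.92 ± 1.76 CPM under UV-C and 9.498 ± 1.49 CPM under UV-B (SD, n = 3).

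**Figure D2:**
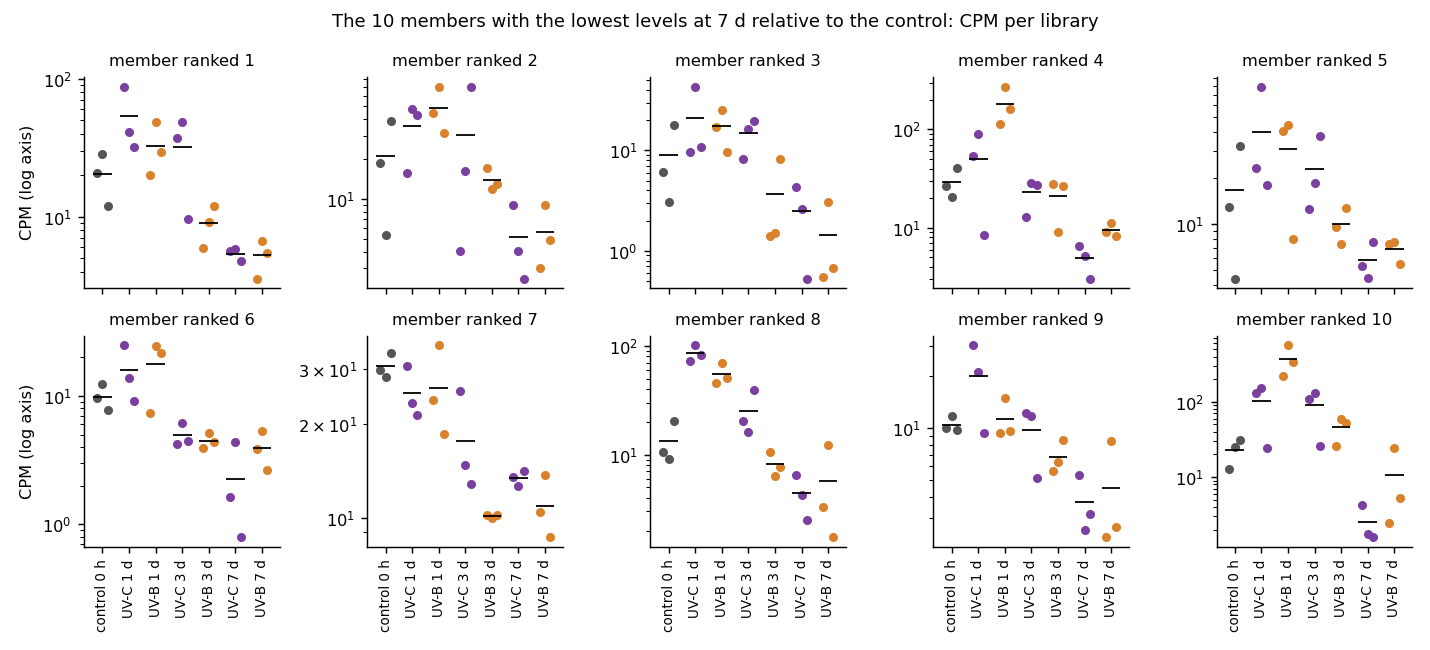
CPM on a log axis in each of the 21 libraries for the 10 members of lowest rank number, with points for libraries and a bar for the group mean. Rank 10 reached 374 CPM on average after 1 d of UV-B, while rank 7 was at most 35.6 CPM in every library and had its lowest mean, 10.1 CPM, at 3 d of UV-B.

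Rank 7 was not above the control mean at 1 d in either band (D of -0.27 for UV-C and -0.23 for UV-B). At 3 d it held 25.4, 14.8 and 12.8 CPM under UV-C and 10.2, 10.0 and 10.2 CPM under UV-B, beside 29.8, 28.2 and 33.7 CPM in the control. Both 3 d groups lay wholly below the control, and the D of -1.50 under UV-B was the lowest at 3 d in that band. It fell by 1.67 on the log2 scale under UV-B at 3 d (SE 0.26, edgeR adjusted p = 0.00024) and by 0.84 under UV-C (SE 0.25, edgeR adjusted p = 0.0224). By 7 d it held 13.6, 12.7 and 14.1 CPM under UV-C and 10.4, 13.7 and 8.68 CPM under UV-B, a range that under UV-B includes the libraries of 3 d.

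Among the most abundant members single libraries stood apart at 7 d. Rank 33 averaged 1875 ± 980 CPM under UV-C and 1879 ± 849 CPM under UV-B at 7 d, beside 3105 ± 718 CPM in the control (SD, n = 3). Its UV-C libraries at 7 d held 1248, 3004 and 1372 CPM, its UV-B libraries 2837, 1220 and 1580 CPM and its control libraries 3781, 2351 and 3183 CPM. UV-C 7 d replicate 2 and UV-B 7 d replicate 1 therefore lay within the control's range. Ranks 25 and 42, next in abundance with control means of 641 and 339 CPM, were likewise highest in UV-C 7 d replicate 2 (595 and 319 CPM) and UV-B 7 d replicate 1 (556 and 328 CPM) among their groups, and lowest in control replicate 2 (391 and 148 CPM) among the control libraries.

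At 7 d the 80 members together took 0.418% ± 0.137 of all counts in UV-C libraries and 0.446% ± 0.102 in UV-B libraries, beside 0.751% ± 0.112 in the control (SD, n = 3). Without rank 33 the shares at 7 d were 0.231% ± 0.0397 and 0.258% ± 0.0339, beside 0.440% ± 0.0426 in the control. At 1 d they were 0.585% ± 0.121 in UV-C libraries and 0.689% ± 0.162 in UV-B libraries.

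The libraries of 3 d had no part in the rule. Without rank 33 the members took 0.463%, 0.542% and 0.407% of counts in the UV-C libraries at 3 d, and 0.281%, 0.273% and 0.351% in the UV-B libraries. The ranges of the bands did not overlap. The UV-C libraries overlapped the control (0.467%, 0.391% and 0.463%), and the UV-B libraries all lay below it. Per library, the median difference of the members from the control mean was -0.11, -0.02 and -0.39 in the UV-C libraries, and in the UV-B libraries it was -0.65, -0.68 and -0.36, so UV-C replicate 3 and UV-B replicate 3 overlapped on this measure.

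**Figure D3:**
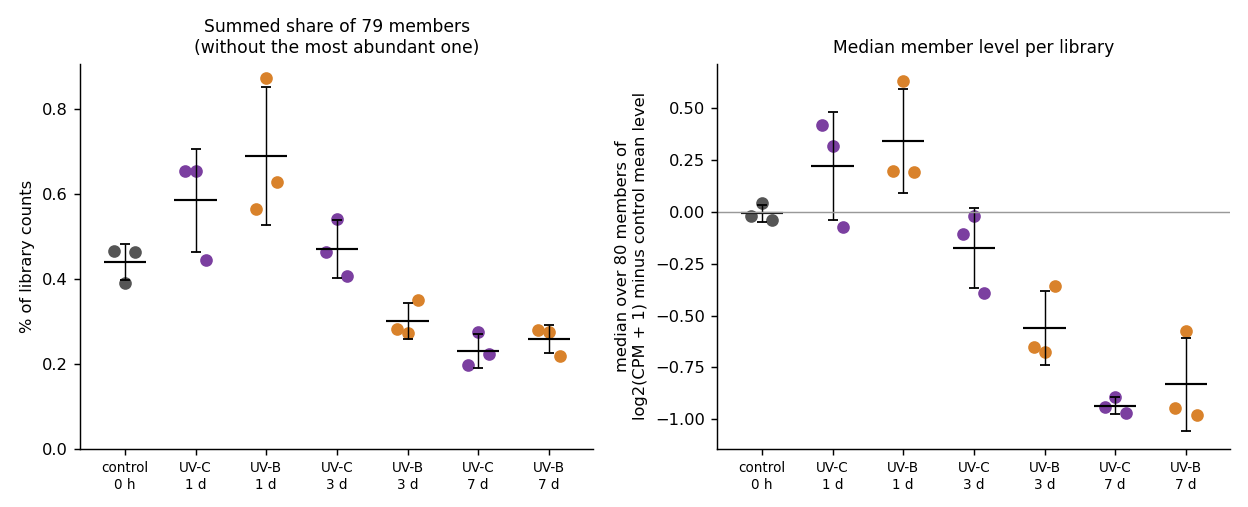
Left, share of a library's counts taken by 79 members without the most abundant one, and right, median over the 80 members of log2(CPM + 1) minus the control mean level, with points for libraries (n = 3 a group), bars for means and whiskers for SD. At 3 d the UV-C libraries lay between 0.407% and 0.542% and the UV-B libraries between 0.273% and 0.351%.

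Over members, D at 3 d had a median of -0.15 under UV-C and -0.55 under UV-B, beside 0.16 and 0.22 for the 6862 eligible gene models that are not members and -0.02 and -0.01 for all 11220 of at least 5 CPM. A D of -0.3 or below was reached by 31 members for UV-C and 52 for UV-B, 38.75% and 65%. The shares were 27.8% and 29.5% of the 11220, and 9.97% and 7.36% of the eligible gene models that are not members. Of the members, 22 were at or below -0.3 in both bands, 9 under UV-C only, 30 under UV-B only and 19 in neither. The control libraries entered the rule as well as these contrasts, and their part in the lower level at 3 d was not tested.

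In the test against the control, 9 members were called lower under UV-C at 3 d, 11.25% of the 80, where 10.6% of all gene models tested were called lower, so that share is near the background. Under UV-B at 3 d, 25 members were called lower, 31.25%, where 15.1% of all gene models were. Among gene models of at least 5 CPM in the control the shares called lower were 15.6% under UV-C and 21.9% under UV-B, and among eligible gene models that are not members 4.52% and 5.03%. The median log2 fold change of the members was -0.20 under UV-C and -0.66 under UV-B. All 3 UV-C libraries lay below all 3 control libraries for 21 members (background 17.7%), and all 3 UV-B libraries for 37 (background 21.2%).

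The UV-C count at 3 d was 3 with replicate 2 of that group left out and 5 with control replicate 1 left out. In those fits 820 of 18846 and 1261 of 18933 gene models were called lower. The UV-B count was 14 and 15 with replicates 2 and 3 of its group left out. In those fits 2049 of 18877 and 1890 of 18886 gene models were called lower. For the 80 gene models chosen with UV-B 7 d replicate 2 left out, the UV-B count was 13. That is 16.25%, close to the 15.1% of all gene models in the same fit.

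Of the members called lower under UV-B at 3 d, rank 27 had nearly equal values within groups. It held 143, 151 and 156 CPM under UV-C and 109, 109 and 109 CPM under UV-B at 3 d, beside 201, 236 and 206 CPM in the control, and no group overlapped another. It fell by 1.06 on the log2 scale under UV-B (SE 0.11, edgeR adjusted p = 9.81e-06) and by 0.56 under UV-C (SE 0.11, edgeR adjusted p = 0.00194). At 7 d its means were 120 ± 8.17 CPM under UV-C and 127 ± 4.78 CPM under UV-B (SD, n = 3).

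Rank 79 had the lowest D at 3 d under UV-C (-1.82) and a higher mean at 7 d. It held 11.3, 3.76 and 6.87 CPM under UV-C and 18.3, 11.1 and 10.2 CPM under UV-B at 3 d, beside 27.0, 25.8 and 32.2 CPM in the control. Both groups were called lower than the control (log2 fold changes of -2.01 and -1.18, SE 0.31 and 0.30, edgeR adjusted p = 0.000692 and 0.00659). At 7 d its means were 19.0 ± 3.70 CPM under UV-C and 19.1 ± 3.85 CPM under UV-B (SD, n = 3), above those of 3 d.

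The levels compared between UV-C and UV-B at 3 d come from no library that chose the members. The fit, however, took its filter, scaling and spread from all 21 libraries, 15 of which entered the rule. Its SE and calls are thus not free of those libraries. The mean was higher under UV-C for 62 members and lower for 18. In the fit, the log2 fold change was above 0 for 80% of the members. The shares were 47.3% of the eligible gene models that are not members and 53.1% of those of at least 5 CPM. The median log2 fold change, UV-C over UV-B, was 0.45 over the members, beside -0.02 over the eligible gene models that are not members and 0.03 over those of at least 5 CPM. All 3 UV-C libraries lay above all 3 UV-B libraries for 24 members (background 11%) and below them for 3 (background 14%).

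Single members were called in this contrast about as often as gene models in general, 7 of 80 beside a background of 8.6%. The test called 6 members higher under UV-C, 7.5% beside a background of 4.54%, and 1 member lower, 1.25% beside 4.05%. An unadjusted p under 0.05 was reached by 30 members, where 24.8% of all gene models reached it. Of the 7 calls, 0 were made in a fit of these 6 libraries alone, where 6 of 16030 gene models were called higher and 25 lower. Leaving out UV-C replicates 1, 2 and 3 in turn gave 4, 4 and 9 calls. Leaving out UV-B replicates 1, 2 and 3 gave 2, 4 and 3. Over all gene models those fits called 402 to 748 higher and 388 to 722 lower, beside 830 and 740 with all libraries.

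**Figure D4:**
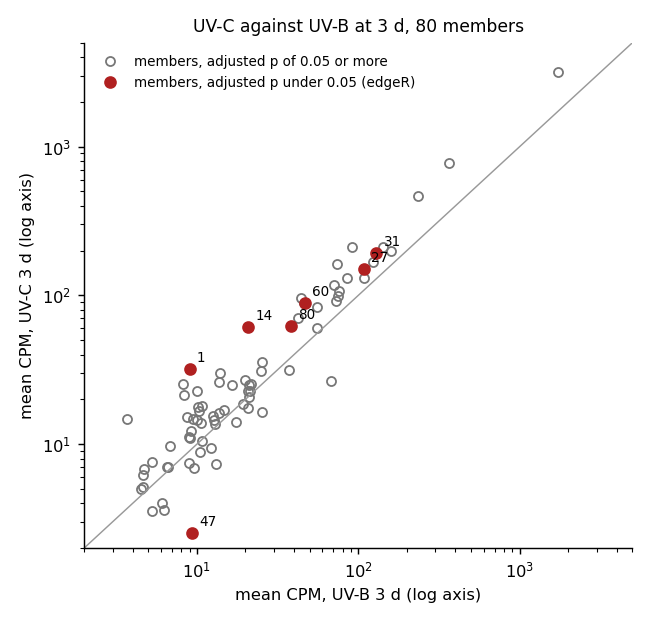
Mean CPM at 3 d of each member under UV-C (vertical) and UV-B (horizontal), both on log axes, with the line of equality and the ranks of the 7 members called in edgeR's test in red. Points above the line, 62 of 80, were higher under UV-C, and rank 47 is the called member below it.

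The smallest adjusted p belonged to rank 60, which held 76.7, 101 and 88.2 CPM under UV-C and 46.1, 44.2 and 50.2 CPM under UV-B at 3 d. The UV-C libraries lay above the control (72.0, 73.6 and 69.8 CPM) and the UV-B libraries below it. The bands differed by 0.95 on the log2 scale (SE 0.17, edgeR adjusted p = 0.00264). At 7 d the means were 47.1 ± 2.69 CPM under UV-C and 46.3 ± 8.64 CPM under UV-B (SD, n = 3).

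Rank 1 had the largest difference among the 6 called higher under UV-C, 1.85 on the log2 scale (SE 0.51, edgeR adjusted p = 0.0325). Rank 14 differed by 1.57 (SE 0.44, edgeR adjusted p = 0.0358), with 63.6, 83.5 and 35.4 CPM under UV-C and 16.7, 14.9 and 31.0 CPM under UV-B. For both, UV-C replicate 3 was the lowest of its group. Ranks 27, 31 and 80 differed by 0.49, 0.61 and 0.74 (SE 0.11, 0.16 and 0.19, edgeR adjusted p = 0.00941, 0.0266 and 0.0244).

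Rank 47 went the other way. It held 3.08, 2.42 and 2.11 CPM under UV-C and 13.0, 6.10 and 9.01 CPM under UV-B at 3 d, beside 7.05, 7.91 and 13.4 CPM in the control. The UV-C libraries lay below both other groups, at 19, 18 and 16 counts, and the UV-B libraries overlapped the control. UV-C was lower than UV-B by a log2 fold change of -1.86 (SE 0.52, edgeR adjusted p = 0.0347). Under UV-B at 7 d it held 6.18, 6.32 and 4.67 CPM, all below the control.

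Most members were lower at 7 d than at 3 d. Under UV-C, 74 members had a lower mean at 7 d than at 3 d and 6 a higher one. Under UV-B the mean at 7 d was lower for 60 members and higher for 20. In the fit, the log2 fold change of 7 d over 3 d was above 0 for 8.75% of the members under UV-C and 30% under UV-B. Of all gene models tested, 47.7% and 49.2% were above 0. The test called 21 members lower and 1 higher at 7 d than at 3 d under UV-C (backgrounds 4.63% and 3.91%). Under UV-B edgeR called 0 members, where 0.0657% of all gene models were called, while 13 members had an unadjusted p under 0.05 (background 14.7%) and DESeq2 called 2 (background 3.7% of gene models with an adjusted p). All 3 libraries of 7 d lay below all 3 of 3 d for 38 members under UV-C (background 16.9%) and for 12 under UV-B (background 12%). The 7 d libraries were chosen to be low, so this is a description. The count of 21 was 0 in a fit of the UV-C libraries of 3 d and 7 d alone, where 0 of 15720 gene models were called. The median log2 fold change of the members was -0.71 in that fit, beside -0.70 in the fit of all libraries. The count was 8 with replicate 2 of 3 d left out, and 9 and 7 with replicates 1 and 2 of 7 d left out. In those fits 153, 192 and 178 gene models were called lower, beside 846 in the fit of all libraries.

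Between the bands at 7 d, plain means were lower under UV-C for 54 members. The widest gap was at rank 10 (D of -2.77 under UV-C and -1.05 under UV-B). In the fit the median log2 fold change of the members, UV-C over UV-B, was -0.02, beside -0.03 over all gene models tested. The log2 fold change was above 0 for 41.25% of the members, beside 46.9% of all gene models tested. edgeR called 0 members, where 6.08% of all gene models were called, 6 members had an unadjusted p under 0.05 (background 21.7%), and DESeq2 called 0 (background 9.4%). The rule asked for a fall in both bands, which limits how far they can differ, and the missing calls do not show equal levels.

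At 1 d edgeR called 7 members lower under UV-C than under UV-B and 3 higher (backgrounds 11.1% and 10.3%). These 10 calls became 2 and 6 with UV-C replicates 1 and 2 left out, and 5 each with UV-B replicates 2 and 3 left out. Over all gene models those fits called 995 to 1716 lower and 1113 to 1590 higher, beside 2036 and 1874 with all libraries. Against the control at 1 d, 3 members were called higher under UV-C (background 3.7%) and 17 under UV-B (background 20.6%). These are 3.75% and 21.25% of the 80, beside 4.68% and 28.3% of the eligible gene models that are not members. The rule kept out gene models with a D of -0.3 or below at 1 d, which limits calls of lower ones without excluding them. The UV-C count was 0 to 1 with any 1 control library left out, and 1 and 5 with UV-C replicates 1 and 3 left out. In those fits 122 to 185, 225 and 979 gene models were called higher, beside 676 with all libraries. The UV-B count was 11 without control replicate 2 or 3. Without UV-B 1 d replicate 2, 7 members were called higher and 3 lower. In those fits 2832, 2945 and 2848 gene models were called higher, beside 3758 with all libraries. Across the 80 members, log2 fold changes of UV-C over UV-B at 3 d had a Pearson correlation of 0.27 with those at 1 d and of 0.20 with those at 7 d, beside 0.41 and 0.56 over all 18265 gene models. The contrasts correlated share no library, and gene models are not independent replicates.

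Levels at 3 d were also read by the level at 1 d. The 26 members with a D above 0.3 at 1 d in both bands had a median D at 3 d of 0.41 under UV-C and -0.37 under UV-B, and 20 of them were higher under UV-C than under UV-B. The 30 members above 0.3 in neither band had medians of -0.20 and -0.59, and 27 of them were higher under UV-C. The 16 above 0.3 under UV-B only had -0.50 and -0.45, with 8 higher under UV-C, and the 8 above 0.3 under UV-C only had -0.07 and -0.57, with 7 higher. All of these share the control libraries, and no test of the groups against each other was made. At 7 d the median D under UV-C was -1.31 for these 26 members and -0.74 for the 30 above 0.3 in neither band, and under UV-B -0.73 and -0.74.

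The members varied more between replicates than gene models of at least 5 CPM in general. The median SD of log2(CPM + 1) over the 3 libraries was 0.41 at 3 d of UV-C and 0.35 at 3 d of UV-B, which the rule did not use, beside 0.24 and 0.19 over the 11220. In the control it was 0.22, beside 0.13. These sets were not matched on level. The highest library was at least 2-fold above the lowest, on CPM + 1, for 34 members in UV-C and 21 in UV-B at 3 d and for 13 in the control, where 15.5%, 8.89% and 2.93% of the 11220 did so. UV-B 7 d replicate 2 was the highest of its group for 56 members, and UV-B 1 d replicate 2 for 57. How often these libraries were highest over the 11220 was not counted, so this is not shown to be particular to the members.

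The level at 7 d was also read with single libraries of 7 d kept out of the choice. The rule was applied again with 1 library of UV-C or UV-B at 7 d left out, and D was computed in that library for the 80 gene models then chosen. The control libraries, and the other libraries of 7 d, still took part in the choice, and D is taken from that same control, so these values are not independent of the rule and are a description. How low D would be from the choice alone was not tested. For UV-C the median D of the left-out library was -0.89, -0.80 and -0.93 for replicates 1, 2 and 3, with 80, 78 and 79 of the 80 below the control mean, beside 53.5%, 56.9% and 60.6% of gene models of at least 5 CPM. For UV-B replicates 1 and 3 it was -0.64 and -0.83, with 64 and 78 below, beside medians of -0.06 and -0.02 and 55.9% and 51.5% in general. For UV-B replicate 2 it was -0.12, with 46 of 80 below, beside a median of -0.03 and 52.5% in general, while the other 2 libraries of its group gave -0.97.

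**Figure D5:**
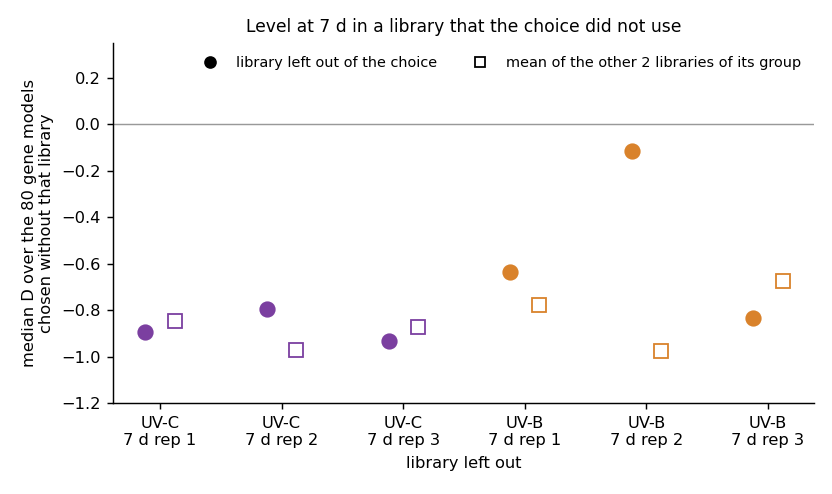
Median D over the 80 gene models chosen with 1 library of 7 d left out, in the library left out (filled circles) and in the mean of the other 2 libraries of its group (open squares). The 3 UV-C libraries lay between -0.93 and -0.80, and UV-B replicate 2 at -0.12 stood apart from UV-B replicates 1 and 3.

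Leaving UV-B 7 d replicate 2 out kept 52 of the 80 members, the fewest of the 15 libraries that the rule uses. Control replicates 1, 2 and 3 left out kept 63, 56 and 57, UV-B 7 d replicates 1 and 3 kept 58 and 63, the UV-C 7 d libraries 70 to 73 and the 1 d libraries 69 to 77.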

How the data were processed

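The authors deposited raw counts per gene model in 21 libraries, without normalization. Per the labels' protocols, Trimmomatic 0.36 trimmed read pairs of 150 bp per end. The submitters' processing notes name featureCounts 1.5.3. Aligner, reference, annotation, strand setting and the handling of ambiguous reads were not given in the sources used here. Near-identical gene copies may share reads, so single gene models carry that uncertainty.

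Members, lists and tests were chosen with earlier results of these data known. D uses plain CPM and a pseudocount of 1. Tests used edgeR 4.0.16 under R 4.3.3 on the counts (quasi-likelihood F-test, two-sided, TMM, filterByExpr, 18265 gene models, all 21 libraries with 1 mean per group), with Benjamini-Hochberg adjustment over all gene models and calls under 0.05. The fit was tested on simulated counts. The SE of a log2 fold change is its size over the root of F. Gene models described singly were the members of ranks 1 to 10 and 80, the first one outside the list (rank 81), the 3 members of highest control mean, the extremes of D at 1 and 3 d, and those called between the bands at 3 d. Lists of named genes and of cell type markers had been drawn up, but identifiers carry no names, so none was matched or tested. Alternatives were DESeq2 1.42.0 (size factors, and the Wald test), other filters, fits of the groups compared, a replicate block, each library left out, and other settings of the rule.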

Additional observations from a re-analysis of the deposited data

Results flagged for a closer look

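For 7 of the 80 members, 8.75% beside 8.6% of all gene models tested, the response to irradiation at 3 d differed between the bands, in the contrast of UV-C with UV-B by edgeR's quasi-likelihood test, in which the control cancels. The log2 fold changes of UV-C over UV-B were 1.85 at rank 1, 1.57 at rank 14, 0.49 at rank 27, 0.61 at rank 31, -1.86 at rank 47, 0.95 at rank 60 and 0.74 at rank 80. Each kept its sign in all 12 alternatives. Adjusted p-values over those alternatives ran from 0.0049 to 0.185 at rank 1, 0.00628 to 0.137 at rank 14, 0.000486 to 0.0932 at rank 27, 0.00831 to 0.191 at rank 31, 0.0083 to 0.113 at rank 47, 1.09e-05 to 0.0589 at rank 60 and 0.00699 to 0.153 at rank 80. Ranks 27 and 60 lost their call in 1 of the 12, the fit of these 6 libraries alone, ranks 31 and 80 in 4 and 5, and ranks 1, 14 and 47 in 6 each. In the fit of the 6 libraries alone, 6 of 16030 gene models were called higher and 25 lower. The cause of the differences between the bands was not tested.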

How the results depend on the processing

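The list itself kept at least 56 of 80 members in every alternative but 3: a minimum D at 1 d of -0.1 or of -0.5 kept 46 each, and leaving out UV-B 7 d replicate 2 kept 52 (range over single libraries 52 to 77). The median D at 3 d kept its sign throughout, from -0.17 to -0.06 under UV-C and from -0.65 to -0.46 under UV-B with single libraries left out. The level at 7 d in left-out libraries ran from -0.93 to -0.80 under UV-C and from -0.83 to -0.12 under UV-B.

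Counts of calls moved with the fit, among the members and over all gene models, and the cause was not tested. Fits of only the groups compared gave 0 members between the bands at 3 d (6 of 16030 gene models higher, 25 lower). They gave 60 and 44 lower under UV-C and UV-B at 7 d (2027 of 15485 and 2065 of 15712 gene models). At 1 d they gave 5 under UV-C (939 of 15617 higher, 628 lower) and 1 between the bands (856 of 16117 higher, 941 lower). They gave 0 lower at 7 d than at 3 d of UV-C, where 0 of 15720 gene models were called. DESeq2's Wald test gave 13 between the bands at 3 d (1186 of 18265 gene models higher, 1053 lower). It gave 5 under UV-C at 1 d (1247 gene models higher, 719 lower). At 7 d against 3 d it gave 32 lower under UV-C and 2 under UV-B (1551 and 265 gene models lower). With no filter on low counts 9 were called under UV-C at 1 d (1018 of 39403 gene models higher, 426 lower). That fit gave 1 lower at 7 d than at 3 d of UV-B (116 gene models). Members chosen with UV-B 7 d replicate 2 left out, an alternative chosen after seeing the data, gave 13 lower under UV-B at 3 d (16.25% of 80, beside 15.1% of all gene models). With single libraries left out, counts ran from 2 to 9 between the bands at 3 d, 3 to 8 and 14 to 21 lower under UV-C and UV-B at 3 d, 9 to 19 and 18 to 28 at 7 d, 0 to 5 and 10 to 18 called at 1 d, 2 to 9 between the bands at 1 d, 0 at 7 d, and 7 to 27 and 0 to 1 lower at 7 d than at 3 d of UV-C and UV-B. Over all gene models, calls lower under UV-C at 7 d ran from 491 to 753 in such fits, beside 1121 with all libraries. Under UV-B at 7 d they ran from 961 to 1200, beside 1530. At 3 d they ran from 820 to 2673 under UV-C and 1890 to 2845 under UV-B, beside 1931 and 2750. Calls higher at 1 d ran from 122 to 979 under UV-C and 2832 to 3518 under UV-B, beside 676 and 3758. Between the bands at 1 d, 1113 to 1590 were higher and 995 to 1972 lower, beside 1874 and 2036. Lower at 7 d than at 3 d were 153 to 1991 under UV-C and 2 to 150 under UV-B, beside 846 and 9. At rank 2 the difference between the bands at 3 d was -0.42, reversed, without UV-C 3 d replicate 3. It ran up to 1.64 without UV-C 3 d replicate 1.

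The labels number the replicates without saying what a number stands for. Same-numbered libraries did not deviate together in general: 13 of 63 pairs had a correlation of deviations over 0.1. The median was 0.02 and the lowest -0.35. Single pairs reached 0.40 (replicate 1 of UV-B at 3 d and 7 d) and 0.38 (replicate 2 of UV-B at 1 d and UV-C at 3 d). Replicate 2 of UV-B at 1 d and 7 d had 0.16. Of 21 libraries, 7 correlated best with their own number. A replicate block gave 6 members between the bands at 3 d and 8 and 24 lower under UV-C and UV-B at 3 d, within 1.5 times of the counts without it. In that fit 785 of 18265 gene models were called higher and 692 lower between the bands at 3 d. Against the control at 3 d, 1943 and 2721 of the 18265 were called lower under UV-C and UV-B. Without the most abundant member, a setting chosen after seeing the data, the summed share was 0.585%, 0.471% and 0.231% under UV-C at 1, 3 and 7 d, 0.689%, 0.301% and 0.258% under UV-B, and 0.440% in the control. With 6177212 to 8560163 counts per library, 8 members had fewer than 10 counts in some library.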

Other observations

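The mirrored choice, gene models with D under 0.3 at 1 d in both bands and the highest smaller D at 7 d, gave a shallower list from 7343 eligible gene models. The larger D at 7 d was -0.55 at the 80th late faller, beside a smaller D of 0.45 at the 80th late riser, and the medians were -0.67 for the fallers and 0.54 for the risers. A D of -1 or below in both bands was reached by 12 late fallers, and a D of 1 or more in both by 2 late risers. No test was made of this difference.

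Ranks 58 and 64 have consecutive identifier numbers. Whether they are copies that share reads was not tested.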
